A study of Mus musculus with 20 samples.

Results

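The opioid system of the developing mouse habenula was followed through 7 genes: the 4 opioid receptor genes Oprm1, Oprd1, Oprk1 and Oprl1, and the 3 opioid peptide precursor genes Penk, Pdyn and Pnoc. They were taken by symbol, and each was 1 row of the deposited tables, 7 of 37994 genes in the developmental table and 7 of 36104 genes in the table of the left and right habenula. Single cells were sequenced by CEL-Seq2, a method that sorts cells into 384-well plates and counts 3' ends of transcripts with unique molecular identifiers (UMIs). The developmental series held 15 plates of habenula from the Brn3a-tauLacZ mouse line, named for a tau-lacZ reporter at Brn3a, the older name of the habenula transcription factor gene Pou4f1. There were 2 plates for each of 4 embryonic days (E11, E13, E15, E18), for each of 2 postnatal days (P4, P7) and for the adult, while E12 had 1 plate. Another set held 5 plates of E18 habenula from C57BL/6 mice, 2 of the left hemisphere, 2 of the right and 1 of both sides (the last is titled E1, while its other labels give E18). The labels name no further allele or agent and do not give the sort gate, the number of lacZ alleles, the sex, the age of the adults or the number of mice per plate, so p-values measure only the spread between plates, which may be technical.

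Opioid receptors are G protein-coupled receptors that signal through inhibitory Gi and Go proteins, lower cyclic AMP, open inwardly rectifying potassium channels and close calcium channels, and so quiet the neurons and terminals that carry them. Oprm1 encodes the mu receptor, the main target of morphine, Oprd1 the delta receptor, Oprk1 the kappa receptor and Oprl1 the nociceptin receptor. Penk is cut into enkephalins, Pdyn into dynorphins and Pnoc into nociceptin. The habenula relays forebrain signals to midbrain aminergic nuclei and to the interpeduncular nucleus, and it is one of the brain regions known for dense mu receptor binding. Gpr151 encodes an orphan receptor that marks a set of habenular projection neurons and was the reference gene for co-detection.

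Of the wells, 3729 of 5756 in the developmental series and 1082 of 1920 on the C57BL/6 plates were kept, which needed 1000 or more UMIs, 500 or more genes and no more than 20% of UMIs from mitochondria. The kept wells of a plate held 758697 to 7760372 counts in the series and 1849863 to 6586449 on the C57BL/6 plates. Each plate held 54 to 345 kept wells, with adult plate 1 (56) and left plate 2 (54) the smallest, and adult plate 1 was also the shallowest, with a median of 4408 UMIs per well. Plates differed in their cells: wells with a Pou4f1 UMI made up 28.1% of E18 plate 1, 85.5% of E18 plate 2, 37.5% and 52.6% of the adult plates, 46.2% of the plate of both sides and 51.1 to 92.2% of the other 15. E18 plate 1 also had a low summed level of 10 medial habenula markers (CPM, the counts of a gene scaled to a total of 1000000, of 266 against 3833 on E18 plate 2), and 10 oligodendrocyte markers summed to 11159 and 3066 CPM on the adult plates against at most 382 elsewhere in the series. Every plate uses the same well barcodes, so barcodes cannot show shared cells, and 0 kept wells were identical to another well. All levels below are CPM over the kept wells of a plate, the plate is the replicate, and values are mean ± SD of 2 plates unless stated. The 2 tables come from different mouse lines and were tested apart, so their values are set side by side only. In a plate's sum, fewer cells of a type and less RNA per cell cannot be told apart, which is why the share of wells with at least 1 UMI is given beside each level.

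All 7 gene identifiers of the tables matched the GENCODE M21 annotation of GRCm38. Oprm1 lies at chr10:6758506-7038198 on the plus strand, Oprd1 at chr4:132110726-132144486 on the minus strand, Oprk1 at chr1:5588466-5606131 on the plus strand and Oprl1 at chr2:181715016-181720985 on the plus strand. Penk lies at chr4:4133531-4138819, Pdyn at chr2:129686565-129699844 and Pnoc at chr14:65400673-65425472, all on the minus strand. Oprm1 is the long gene of the family, spanning 280 kb of which 2.87% is exonic, while Oprl1 spans 5.97 kb of which 62.9% is exonic. Because the assay tags 3' ends and unspliced RNA is counted too, levels are not compared between genes of such unequal length.

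Promoter sequences are shown for the 2 receptors that were widely detected, Oprm1 and Oprl1, and for Oprd1, the receptor found in the fewest wells of the series. They are RefSeq windows of GRCm38.p6 that hold the 250 bases before a transcript start and overlap no annotated exon of the gene: chr10:6788320-6788569 for Oprm1 (plus strand), chr2:181714766-181715015 for Oprl1 (plus strand) and chr4:132144487-132144736 for Oprd1 (minus strand). They are written 5′ to 3′, and capitals mark the only match to a searched motif.
Oprm1: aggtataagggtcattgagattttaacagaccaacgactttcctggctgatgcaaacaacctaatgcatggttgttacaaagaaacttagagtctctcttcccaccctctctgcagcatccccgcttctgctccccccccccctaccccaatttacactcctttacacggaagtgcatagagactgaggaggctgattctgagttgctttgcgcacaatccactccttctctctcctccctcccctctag
Oprl1: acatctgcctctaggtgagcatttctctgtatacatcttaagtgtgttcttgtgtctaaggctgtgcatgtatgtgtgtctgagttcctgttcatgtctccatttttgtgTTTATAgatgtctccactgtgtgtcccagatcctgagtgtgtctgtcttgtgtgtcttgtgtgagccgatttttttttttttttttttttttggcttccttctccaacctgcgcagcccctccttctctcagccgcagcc
Oprd1: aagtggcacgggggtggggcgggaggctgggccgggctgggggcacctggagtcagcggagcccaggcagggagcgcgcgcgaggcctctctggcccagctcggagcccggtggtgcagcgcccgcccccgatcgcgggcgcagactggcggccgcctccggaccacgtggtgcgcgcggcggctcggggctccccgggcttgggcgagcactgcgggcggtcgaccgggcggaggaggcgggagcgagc
The Oprd1 window was 80% G or C with 34 CpG dinucleotides, against a median of 52.4% and 6 CpGs over 32851 such windows of mouse genes. The Oprm1 window had 50% and 4 CpGs, and the Oprl1 window 44.4% and 3. On both strands the windows of 4 of the 7 genes (those 3 and Pdyn, with 9 windows in all) held no cyclic AMP response element TGACGTCA, no AP-1 site TGANTCA, no octamer ATGCAAAT and no POU4 core ATTAAT, motifs that 1.55%, 6.75%, 1.60% and 4.39% of all windows hold. The Oprl1 window held TATAAA on the reverse strand, seen as TTTATA from 140 bases before the start, a motif that 12.4% of windows hold. Penk, Pnoc and Oprk1 were not matched.

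Oprm1 was counted almost entirely as unspliced RNA. Of its UMIs in kept wells, 4837 of 5282 in the series were unspliced (91.6%, 95% exact binomial interval 90.8 to 92.3%), and 1726 of 1883 on the C57BL/6 plates (91.7%). Over all genes the unspliced share was 23.1% in the series and 24.5% on the C57BL/6 plates. The share for Oprd1, whose gene spans 33.8 kb, was also high, at 88.2% and 97.4%. For the other 5 members it was low, between 0% (Pdyn in the series) and 12.4% (Penk in the series), and for Oprl1 it was 0.573% and 0.0621%. Intervals cover counting error only.

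**Figure D1:**
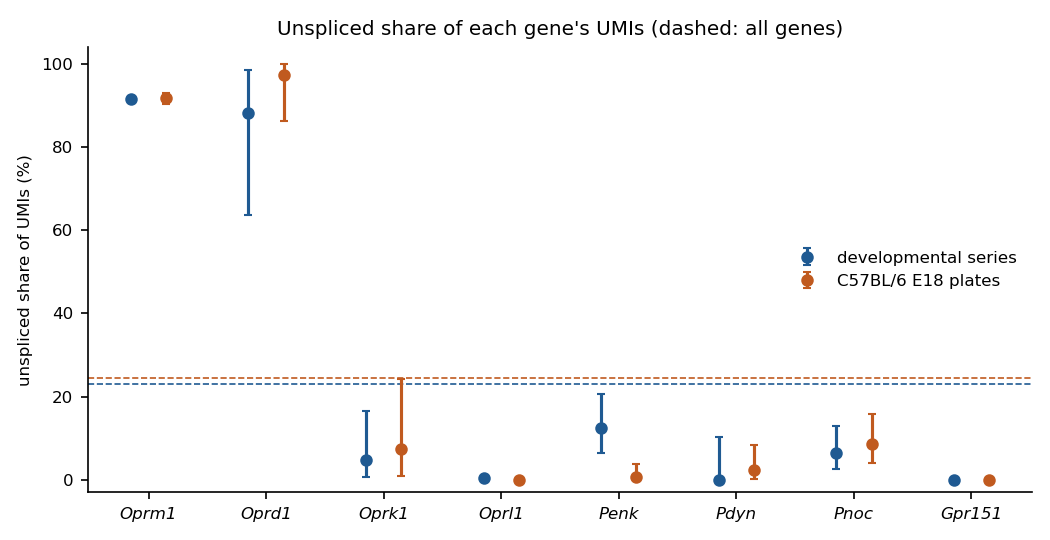
Share of each gene's UMIs that was counted as unspliced (%), over all kept wells of the developmental series and of the C57BL/6 E18 plates; bars are 95% exact binomial intervals and dashed lines give the share over all genes. Oprm1 and Oprd1 lie above 88% in both sets, while the other 5 members and Gpr151 lie below the lines.

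Genes on the other strand overlap Oprm1, and no source used here says whether the counting used strand; if it did not, reads from the overlap cannot be told apart. Ipcef1 covers 152.4 kb (54.5%) of Oprm1 and was counted at 2.08 to 13.3 CPM per plate in the series. Its levels were 12.0 and 13.3 CPM on the E11 plates and 12.2 on the E12 plate, stages where Oprm1 was low. Ipcef1 was lower on the E13 plates (3.98 and 5.84), the E15 plates (3.26 and 2.08) and the E18 plates (3.99 and 3.77). Oprm1 was low on those plates too. The P4 plates had 8.31 and 5.83 CPM of Ipcef1, the P7 plates 7.60 and 6.51, and the adult plates 3.95 and 6.36. Ipcef1 was thus higher at P4 than at E18, as Oprm1 was, but lower at P4 than at E11, unlike Oprm1. On the C57BL/6 plates it had 1.62 to 8.95 CPM and was higher in Gpr151-positive than negative wells on 4 of 5 plates (9.23 against 4.74 CPM over all their wells), the direction that Oprm1 also had there. Over all wells of the series, which pool the stages, it had 6.64 CPM in positive and 8.18 in negative wells. By plate, positive and negative wells had 8.91 and 7.45 CPM on P4 plate 1, and 6.60 and 4.76 on P4 plate 2. The P7 plates had 6.06 and 11.3 (plate 1) and 6.70 and 5.98 (plate 2). The adult plates had 5.48 and 0 (plate 1) and 6.12 and 7.43 (plate 2), so the direction differed between these plates. The part of Ipcef1 reads in the Oprm1 counts was not tested. Gm10945 overlaps the first 3.256 kb of Oprm1, and A830012C17Rik overlaps 0.499 kb of Penk. No other annotated gene overlaps a member.

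Across the developmental series the level of Oprm1 changed with stage, and it was highest after birth. At E11 the plates had 16.8 and 19.0 CPM, at E12 23.6, at E13 10.8 and 2.65, at E15 2.71 and 31.5, and at E18 3.19 and 27.9. After birth the plates had 74.7 and 82.2 CPM (P4), 143 and 189 (P7) and 137 and 309 (adult). Every plate from P4 on lay above every embryonic plate of the series, and the 2 plates of E15 and of E18 differed widely. In order of their means the stages ran adult (223 ± 121 CPM), P7 (166 ± 32.3), P4 (78.5 ± 5.31), E12, E11 (17.9 ± 1.55), E15 (17.1 ± 20.4), E18 (15.5 ± 17.5) and E13 (6.72 ± 5.75). The plates of adult and P7 overlapped, those of P7 and P4 did not, and both E13 plates lay below both E11 plates, while E15 and E18 could not be ordered against E11, E13 or each other beyond their spread. The C57BL/6 plates of E18, with 67.8 to 114 CPM, lay above the E18 plates of the series, 3 of them above and 2 below both P4 plates; the sets differ in mouse line and were not tested against each other.

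In a fit over the 14 plates of the 7 stages with 2 plates, 1 of the 4 members that passed the filter on low counts, Oprm1, differed between stages (adjusted p = 0.00411, edgeR's quasi-likelihood F test with Benjamini-Hochberg adjustment over 17453 genes). In that test 46.4% of all genes passed, so a stage difference was common. Oprl1 (adjusted p = 0.325), Penk (0.286) and Pnoc (0.0574) did not pass, and Oprd1, Oprk1 and Pdyn were too low to be tested. Gpr151 passed (adjusted p = 0.00065) and Pou4f1 did not (0.129). Oprm1 passed in all 23 alternatives of this test, with the highest adjusted p at 0.0134.

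Single steps between stages were less certain, and 0 of the 4 tested members passed any of them in the main edgeR fit. From E11 to P4 the log2 fold change of Oprm1 was 2.20 (SE 0.85, adjusted p = 0.0825), where 24.3% of genes passed. From E18 to P4 it was 2.68 (SE 0.95, adjusted p = 0.0671), where 19.6% passed, from P4 to P7 1.06 (SE 0.80, adjusted p = 1), where 0.00573% passed, and from P7 to adult 0.34 (SE 0.79, adjusted p = 0.851), where 3.58% passed. The last value turned to −0.32 without adult plate 2 and to −0.45 with spliced counts, so adult and P7 had no settled order. At an unadjusted p under 0.05 edgeR had 2 members from E11 to P4 (Oprm1 and Pnoc), 2 from E18 to P4 (Oprm1 and Oprl1) and 0 at the later steps, and DESeq2 called 0 members at each step and 2 over all stages. The edgeR calls depended on the settings and on the plates that entered the fit. With spliced counts Oprm1 passed from E11 to P4 and from E18 to P4. From E18 to P4 it also passed with the replicate block and without wells of very high UMIs. A fit of the 4 plates of the step alone also changes the filter and the scaling. In that fit Oprm1 passed from E11 to P4 (2.15, adjusted p = 6.25e-07) and from P4 to P7 (adjusted p = 0.00597). Without E18 plate 2 the step from E18 to P4 was 4.98 (adjusted p = 0.00728), and without plate 1 its adjusted p was 0.28.

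Within the series both the share of wells with Oprm1 and the UMIs per such well were higher after birth, but the C57BL/6 E18 plates did not have the low values of the embryonic series plates. The gene was found in 14.9% and 15.7% of kept wells at E11, 17.2% at E12, 7.19% and 2.92% at E13, 2.13% and 11.9% at E15, and 2.62% and 17.3% at E18. After birth it was found in 27.2% and 22.4% (P4), 50.9% and 49.3% (P7) and 37.5% and 47.4% (adult). The P7 and adult plates thus stood above the P4 plates, and all of these above the embryonic plates of the series. A well with Oprm1 held on average 1.14 to 2.95 of its UMIs up to E18 and 4.96 to 9.59 from P4 on in the series. On the C57BL/6 E18 plates the gene was found in 21.9 to 35.7% of wells, with 4.99 to 15.1 UMIs per such well. With each well thinned to 2000 UMIs, leaving out shallower wells, the share was 0 to 4.76% on the embryonic plates of the series, 9.45 to 16.7% on the C57BL/6 E18 plates, 11.9% and 10.3% at P4, then 23.1% and 25.6% at P7, and 10.8% and 26.3% for adult plates. On adult plate 1, 1 well held 38.6% of the Oprm1 counts, and the plate had 90.1 CPM without it.

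Taken over wells with a Pou4f1 UMI only, a gene of habenula neurons, the stage means of Oprm1 were 18.8 CPM at E11, 24.3 at E12, 8.78 at E13, 16.8 at E15 and 15.6 at E18. The later means were 80.7 (P4), 171 (P7) and 264 (adult). These means lay close to those over all kept wells, so the low embryonic and high postnatal levels were present within this class of wells as well. The same restriction gave 114 on the left C57BL/6 plates, 90.0 on the right and 115 on the plate of both sides. These E18 values lay above the P4 mean of the series, so the low embryonic level held for the series only.

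**Figure D2:**
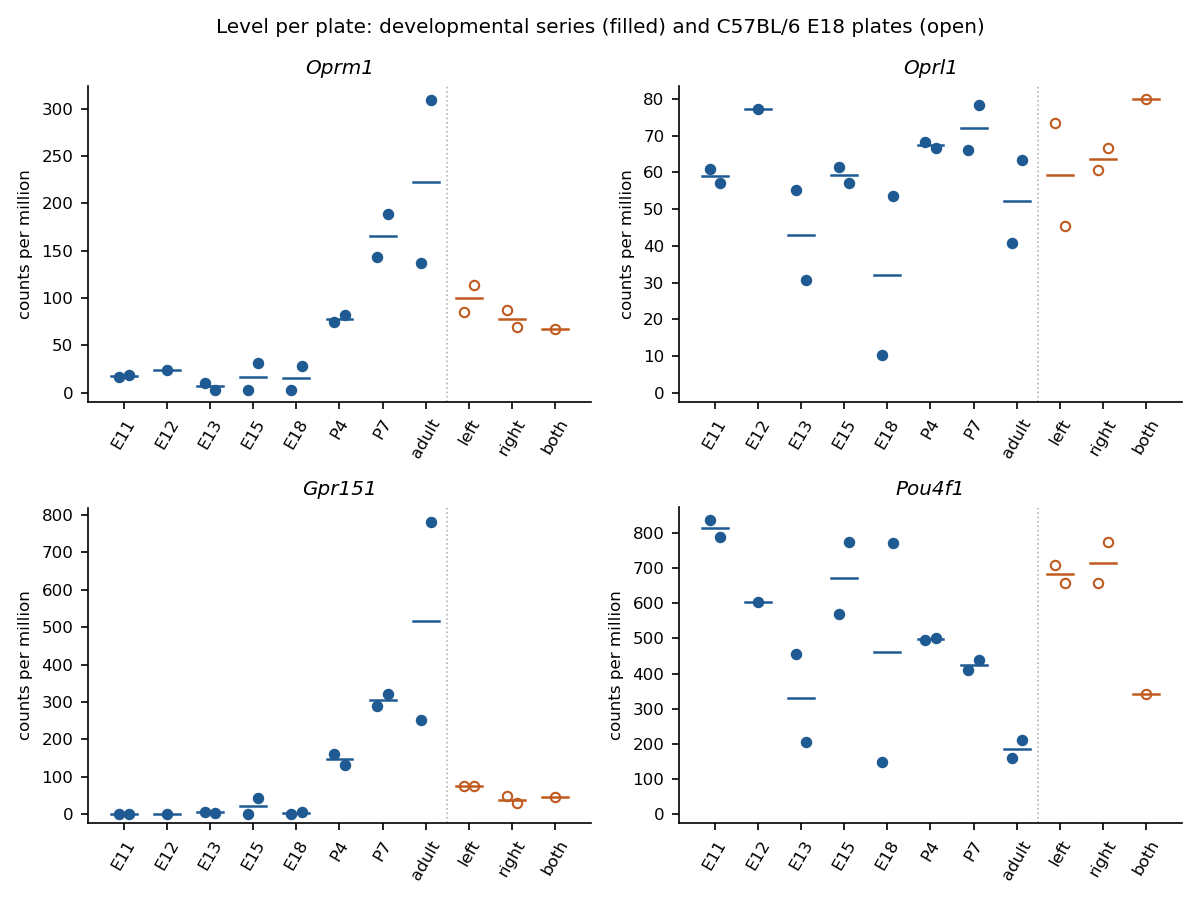
Levels of Oprm1, Oprl1, Gpr151 and Pou4f1 (CPM over kept wells, linear axes) on each plate, with the stages of the developmental series filled and the C57BL/6 E18 plates open; short lines are group means. Within the series Oprm1 and Gpr151 are highest from P4 to adult, the Oprm1 points of the C57BL/6 E18 plates (67.8 to 114 CPM) lie on either side of those of P4, and the Oprl1 plates of early and late stages lie at similar levels.

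Oprl1, the nociceptin receptor gene, was the most widely detected member and was present from the first stage on. Its plates had 61.1 and 57 CPM at E11, 77.3 at E12, 55.1 and 30.8 at E13, 61.3 and 57.1 at E15 and 10.4 and 53.5 at E18. The later plates had 68.2 and 66.6 (P4), 66.0 and 78.3 (P7) and 40.9 and 63.4 (adult). Apart from E18 plate 1, the plate with few Pou4f1 wells, all plates lay between 30.8 and 78.3 CPM. By mean the stages ran E12, P7 (72.1 ± 8.68), P4 (67.4 ± 1.15), E15 (59.2 ± 3.03), E11 (59.0 ± 2.86), adult (52.2 ± 16.0), E13 (43.0 ± 17.2) and E18 (31.9 ± 30.5). P7 and P4 overlapped, as did E15 and E11, and the ranges of adult, E13 and E18 overlapped too. Over only the wells with Pou4f1, the E18 mean was 42.2 CPM and the adult mean 63.4. In those wells E18 plate 1 had 27.0 CPM, still below the 57.5 of E18 plate 2.

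The share of wells with an Oprl1 UMI was 49.8% and 43.8% at E11, 53.6% at E12, 35.3% and 21.2% at E13, 37.2% and 39.7% at E15, and 6.74% and 31.8% at E18. Later shares were 64.5% and 58.4% (P4), 64.1% and 56.8% (P7) and 17.9% and 43.0% (adult). Wells with the gene held 1.44 to 3.10 of its UMIs on average in the series. Thinned to 2000 UMIs the shares at P4 (10.8% and 9.32%) lay within the range of the E11, E12 and E15 plates (7.12 to 15.0%). From E18 to P4 the log2 fold change was 1.33 (SE 0.56, adjusted p = 0.112). Without E18 plate 2, leaving plate 1 alone at that stage, it was 3.07 and passed (adjusted p = 0.000644). Neuron markers summed to 3497 CPM on E18 plate 1 against 8306 on plate 2, and progenitor markers to 3674 against 195; their part in the Oprl1 level was not tested.

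Delta and kappa receptor transcripts were close to the limit of detection. Oprd1 was found in 17 of 3729 wells of the series (0.456%), each with 1 UMI. At P4 and P7 no well had it (0 of 609 and 0 of 620), which allows up to 0.387 to 0.528 CPM per plate and shares of up to 0.920 to 1.05% of a plate's wells. It was found in 35 of 1082 wells of the C57BL/6 set, at 3.21 and 1.62 CPM on the left, 1.09 and 2.31 on the right and 0.304 on the plate of both sides. Left plate 1 had the highest share, 19 of 283 wells (6.71%). In the series its highest plates were E18 plate 1 (1.2 CPM), E15 plate 2 (1.19) and E15 plate 1 (1.09).

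Oprk1 was found in 29 wells of the series (0.778%) and 18 of the C57BL/6 plates. In the series 18 of those wells came from the 654 wells of E11, where the plates had 2.12 and 1.84 CPM, and E12 had 1.90. Both E13 plates, E15 plate 1, E18 plate 2 and both adult plates had no count, which allows up to 1.70 and 1.59 CPM at E13, 1.63 on E15 plate 1, 2.26 on E18 plate 2, and 3.95 and 0.596 in the adult. The other later plates had 0.258 to 0.798 CPM. So the P4 and P7 plates, with 0.258 to 0.460 CPM, lay below E11 and E12, but a fall was not detectable at this depth on E18 plate 2 and adult plate 1, and the limits at E13 and on E15 plate 1 were close to the E11 level. The plate of both sides stood above the left and right plates, with 12 of 333 wells (3.6%) and 2.89 CPM, against 0 to 0.905 CPM on the other 4. In wells with Pou4f1 it had 1.67 CPM there. That plate also had the highest summed level of 5 thalamus-type neuron markers in its set (3391 CPM against 2408 to 2743), and their part in this difference was not tested.

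The peptide precursors were found in few wells, where they were found at all. Penk, the enkephalin precursor, was found in 57 wells of the series (1.53%), at 2.03 and 2.45 CPM at P4 (20 of 609 wells), 3.48 and 0.528 at P7 and 0.398 on adult plate 2, while a count of 0 on adult plate 1 allows up to 3.95. Its highest plate in the series was E13 plate 2, with 8.50 CPM in 10 of 137 wells (4.81 without its highest well), where 6 ependymal and choroid plexus markers also summed to 3845 CPM; their part was not tested. In the C57BL/6 set Penk ranged from 0 (left plate 2) to 17.4 CPM (left plate 1), and the plate of both sides had 5.16. Of the counts on left plate 1, 81.5% came from 1 well without Gpr151, and the level without that well was 3.23 CPM.

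Pdyn, the dynorphin precursor, was found in 26 wells of the series (0.697%), at 3.99 CPM on E18 plate 1 (2.00 without its highest well) and at most 1.63 on the other plates with a count. Pdyn had 9.80 CPM in the Pou4f1 wells of E18 plate 1, which held 8.00 of its 10.0 counts there. It had no count on E13 plate 2 and adult plate 1, which allows up to 1.59 and 3.95 CPM. It was found in 43 wells of the C57BL/6 set, at 3.21 and 2.16 CPM on the left, 3.62 and 1.15 on the right and 5.62 on the plate of both sides (20 of 333 wells, 6.01%). In wells with Pou4f1 the plate of both sides had 1.12 CPM, the lowest of the 5 plates, against 1.25 to 2.76 on the others. E18 plate 2 of the series had 0.753 CPM. Pnoc, the nociceptin precursor, had 5.03 and 2.04 CPM at E11, 5.48 at E12, and 5.11 and 3.72 at E13. It had 0.543 and 2.68 at E15, 4.39 and 0 at E18, then 0.509 and 0.460 (P4), and 0.387 and 0 (P7). In the adult no well of 398 had it, which allows up to 3.95 CPM on the shallow plate 1 and 0.596 on plate 2. Both P4 and both P7 plates (a count of 0 on P7 plate 2 allows 0.528) and adult plate 2 lay below all plates of E11 to E13, while adult plate 1 could not be placed. Of the 26.0 counts on E11 plate 1, 19.0 came from 1 well, and that plate had 1.36 CPM without it. Without the highest well of each plate E18 plate 1 and E12 (3.59) had the highest levels, then E13 (2.29 and 2.14) and E11 plate 2 (1.64). The log2 fold change from E11 to P4 was −2.72 (SE 1.14, adjusted p = 0.109) and did not pass. The plate of both sides had 7.90 CPM (24 of 333 wells, 7.21%) against 1.73 to 3.98 on the left and right plates. In its wells with Pou4f1 it had 1.39 CPM, within the 0.689 to 3.12 of those wells on the left and right plates. On E18 plate 1 of the series, wells with Pou4f1 had 9.80 CPM of Pnoc and held 8.00 of its 11.0 counts.

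**Figure D3:**
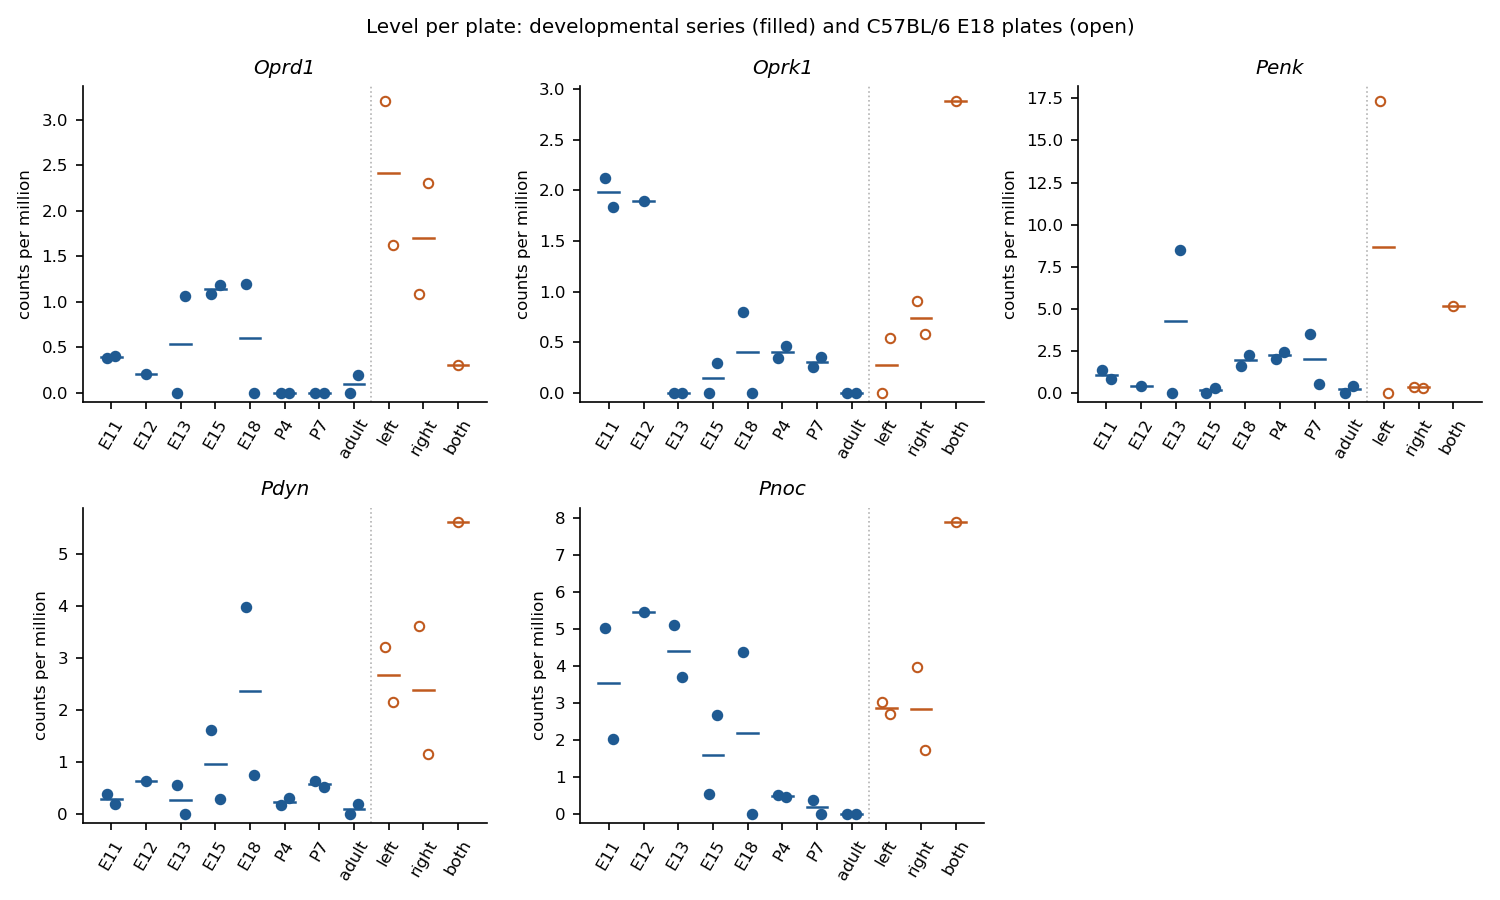
Levels of the 5 rarely detected members (CPM over kept wells, linear axes that differ between panels) on each plate of the developmental series (filled) and of the C57BL/6 E18 set (open); short lines are group means. Oprd1 has no count at P4 and P7, Pnoc none in the adult, and the single high Penk point is left plate 1.

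No member passed the test between left and right habenula at E18. Oprm1 had 85.4 and 114 CPM on the left and 87.5 and 69.1 on the right, so the sides overlapped (log2 fold change left over right 0.35, SE 0.22, adjusted p = 1 by edgeR). Oprl1 had 73.3 and 45.4 on the left and 60.6 and 66.6 on the right (−0.04, adjusted p = 1), again with overlap. Of the 5 members tested, 0 passed, and 0% of 15489 genes passed; at an unadjusted p under 0.05 there were 0 members and 182 genes, and DESeq2 called 0 members and 1 gene. With 2 plates a side, this does not show that the sides are alike. Gpr151 itself had 75.8 ± 0.999 CPM on the left and 39.1 ± 13.3 on the right (log2 fold change 0.96, unadjusted p = 0.00275, adjusted p = 1). Red blood cell markers summed to 19048 and 17219 CPM on the left plates and 3410 and 265 on the right, and their part was not tested.

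Oprm1 was concentrated in wells that also held Gpr151. On the 6 plates of P4, P7 and adult, wells with a Gpr151 UMI had 199 ± 90.8 CPM of Oprm1 (n = 6 plates) and wells without had 44.8 ± 25.7. By plate, positive and negative wells had 108 and 26.5 CPM on P4 plate 1, 136 and 7.32 on P4 plate 2, 181 and 53.7 on P7 plate 1, 231 and 73.1 on P7 plate 2, 176 and 37.9 on adult plate 1, and 364 and 70.1 on adult plate 2. The positive wells were higher on 6 of 6 plates, by 3.15- to 18.6-fold, and the lowest positive value lay above the highest negative one. With the plate as block the log2 fold change was 2.37 (SE 0.27, adjusted p = 0.000272, edgeR's quasi-likelihood test with Benjamini-Hochberg adjustment). In this comparison 9.7% of 15107 genes passed, 2.24% as higher in positive wells and 7.46% as lower. Oprm1 passed in all 15 alternatives, with log2 fold changes of 2.03 to 2.53.

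The C57BL/6 E18 plates gave the same direction. There Oprm1 had 219 ± 39.3 CPM in Gpr151-positive and 34.2 ± 6.00 in Gpr151-negative wells (n = 5 plates). By plate the values were 217 and 27.3 on left plate 1, 259 and 29.9 on left plate 2, 237 and 38.1 on right plate 1, 155 and 42.1 on right plate 2, and 229 and 33.5 on the plate of both sides. All 5 plates were higher in positive wells, by 3.67- to 8.67-fold, with no overlap of the groups. The log2 fold change was 2.72 (SE 0.15, adjusted p = 3.14e-07), where 15.2% of 13315 genes passed, 6.79% as higher and 8.45% as lower. On the embryonic plates of the series few wells held Gpr151, and the direction was not the same on each plate. On E15 plate 2, 14 of 60 Gpr151 wells held Oprm1 (23.3%, 71.5 CPM) against 9.09% of the others (19.4 CPM). On E18 plate 2, 1 of 6 Gpr151 wells held it (15.3 CPM, against 29.3 in the others), and on E13 plate 1 0 of 6 did (against 11.4 CPM in the others).

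**Figure D4:**
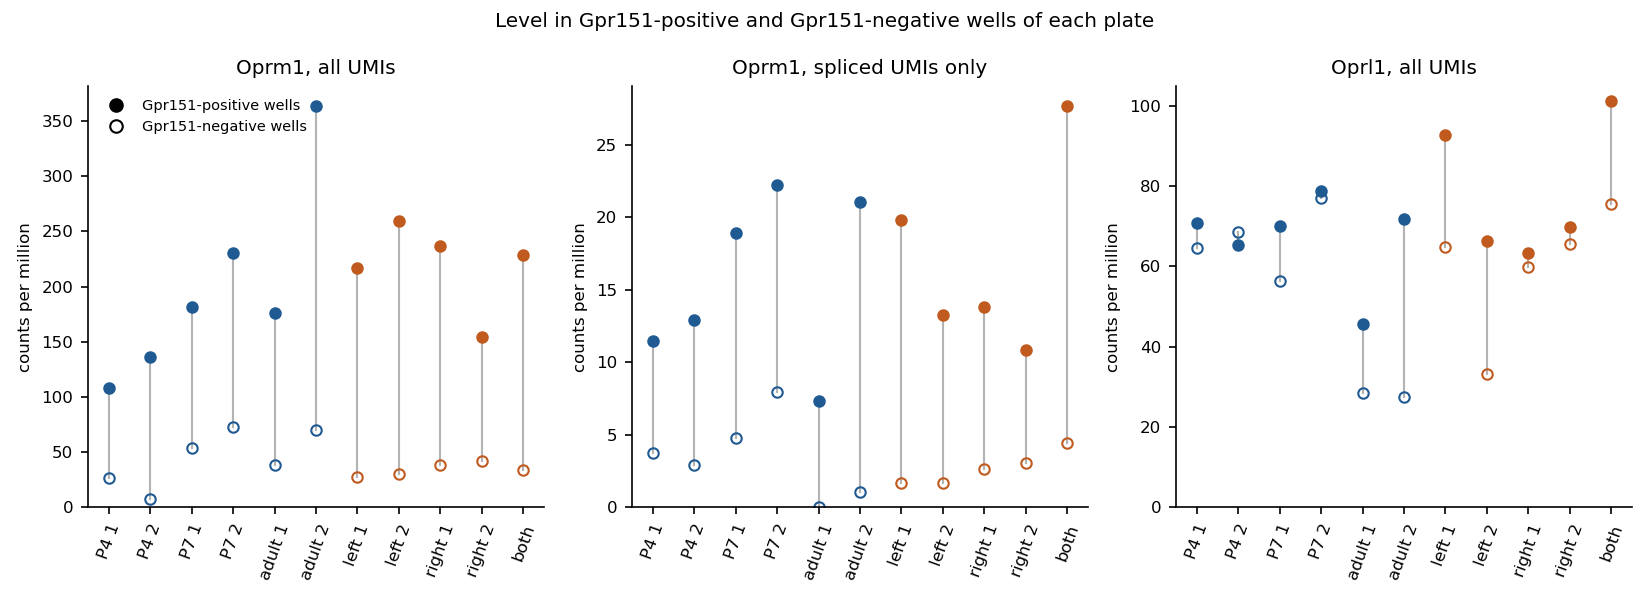
Levels of Oprm1 (all UMIs and spliced UMIs only) and Oprl1 in Gpr151-positive (filled) and Gpr151-negative (open) wells of each plate (CPM, linear axes from 0); blue is the developmental series and orange the C57BL/6 E18 plates. The Oprm1 pairs are far apart on all 11 plates, and the Oprl1 pairs are close on most.

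The overlap of Oprm1 and Gpr151 was also seen as shares of wells. In Gpr151-positive and negative wells the share with Oprm1 was 41.9% and 11.5% on P4 plate 1, 36.0% and 8.23% on P4 plate 2, 59.1% and 35.1% on P7 plate 1, and 59.4% and 30.4% on P7 plate 2. It was 66.7% and 15.6% on adult plate 1 and 65.3% and 21.4% on adult plate 2. For the C57BL/6 plates it was 43.8 to 66.2% in positive and 17.3 to 25.7% in negative wells. Read the other way, 76.2 to 81.9% of the Oprm1 wells on the P4 to adult plates held Gpr151, and 30 to 50.5% on the C57BL/6 E18 plates. Gpr151 itself was found in 42.9 to 66.0% of all kept wells from P4 on and in 13.2 to 29.6% on the C57BL/6 plates, so the shares of the 2 sets have different bases. In thinned wells the share of Oprm1 wells with Gpr151 was 54.5% and 62.5% at P4, 56% and 58.3% at P7, 25% (of 4 wells) and 78.8% in the adult, and 19.4 to 43.2% on the C57BL/6 plates, where Gpr151 was found in 20.1 to 44.9% and 3.05 to 14.6% of thinned wells.

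Wells with Gpr151 were deeper, with medians of 22266 and 15519 UMIs in positive and negative wells of P4 plate 1 and 19185 and 5032 on adult plate 2. With every well thinned to 2000 UMIs, and Gpr151 status read from the thinned UMIs, the share with Oprm1 was 32.1% and 6.76% on P4 plate 1, 28.2% and 5.00% on P4 plate 2, 41.6% and 14.8% on P7 plate 1, 41.6% and 16.7% on P7 plate 2, and 46.2% and 10.1% on adult plate 2. Adult plate 1 had 7.14% and 13.0%, from 14 and 23 wells. The C57BL/6 plates had 14.3% (left plate 2, 7 wells) to 60% in positive and 7.86 to 11.1% in negative wells. At equal depth the positive wells thus had the higher share on 10 of 11 plates. Spliced UMIs, a small part of Oprm1, showed the same order, with 7.30 to 22.3 CPM in positive and 0 to 7.97 in negative wells of the P4 to adult plates, higher in positive wells on each plate. In the C57BL/6 set spliced Oprm1 had 10.8 to 27.7 CPM in positive and 1.70 to 4.42 in negative wells.

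Free RNA can give UMIs in wells that do not express a gene. On adult plate 2, 11 of 64 oligodendrocyte lineage-like wells (17.2%, median 7076 UMIs) held an Oprm1 UMI and 16 of 64 (25%) a Gpr151 UMI. The Gpr151-negative wells of that plate, which include oligodendrocyte wells without Gpr151, had 21.4% (95% exact binomial interval 15.0 to 29.2%, median 5032 UMIs). Over the whole series Oprm1 was found in 6 of 62 wells (9.68%) of astrocyte-like cluster 14, 2 of 33 (6.06%) of astrocyte-like cluster 22 and in 0 of 27 microglia-like wells, which allows up to 11.1%. In the C57BL/6 set it was found in 2 of 34 red blood cell-like wells (5.88%, median 3949 UMIs). The part of free RNA in the Oprm1 levels of Gpr151-negative wells was not tested.

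Oprl1 levels lay close together in Gpr151-positive and negative wells of the P4 and P7 plates. On the P4 to adult plates it had 67.0 ± 11.3 CPM in Gpr151-positive and 53.7 ± 21.0 in negative wells (log2 fold change 0.40, SE 0.18, adjusted p = 0.192, higher on 5 of 6 plates). The ratio was 0.952 to 1.25 on the P4 and P7 plates and 1.60 and 2.60 on the adult plates, the plates with oligodendrocyte markers at 11159 and 3066 CPM, whose part was not tested. At E18 in C57BL/6 it had 78.7 ± 17.1 and 59.8 ± 15.9 CPM (log2 fold change 0.43, SE 0.13, adjusted p = 0.0337, higher on 5 of 5 plates), so that both tested members passed there. This call was lost in 6 of 14 alternatives, among them Pou4f1-positive wells only (adjusted p = 0.133), thinned wells (0.657), left plate 1 left out (0.149) and the plate of both sides left out (0.124). The log2 fold change itself stayed between 0.36 and 0.62 in all 14.

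The sparse members were not tested in this comparison, since they did not pass the filter. In the series 1021 of 3729 wells (27.4%) held Gpr151. Of the wells with a sparse receptor gene, 1 of 17 Oprd1 and 4 of 29 Oprk1 wells also held it. Of those with a precursor gene, 18 of 57 Penk, 10 of 26 Pdyn and 3 of 48 Pnoc wells did. The counts were 8 of 35, 0 of 18, 2 of 22, 9 of 43 and 4 of 48, in the C57BL/6 set, where 224 of 1082 wells held Gpr151. Pnoc was found in 1.79% of the Gpr151 wells there and in 5.13% of the others. These wells come from plates of different stages and depth, so the counts describe where the genes were found and are not a test.

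Co-detection of the members was counted over wells. Oprm1 and Oprl1 shared 550 wells of the series and 228 of the C57BL/6 plates. On the C57BL/6 plates, where 592 of 1082 wells held Oprl1 and 325 held Oprm1, Oprl1 was found in 23 of 35 Oprd1 wells, 11 of 18 Oprk1 wells, 16 of 22 Penk wells, 30 of 43 Pdyn wells and 31 of 48 Pnoc wells. Oprm1 was found there in 15 of 35 Oprd1 wells, 5 of 18 Oprk1 wells, 4 of 22 Penk wells, 12 of 43 Pdyn wells and 14 of 48 Pnoc wells. In the series, where 1693 of 3729 wells held Oprl1 and 875 held Oprm1, Oprl1 was found in 8 of 17 Oprd1 wells, 16 of 29 Oprk1 wells, 28 of 57 Penk wells, 15 of 26 Pdyn wells and 18 of 48 wells with its own precursor Pnoc. Oprm1 was found in 1, 7, 8, 12 and 4 of these wells. The kappa receptor and its dynorphin precursor were together in 0 of 29 Oprk1 wells of the series and in 5 of 18 on the C57BL/6 plates, where 43 of 1082 wells held Pdyn. Of the precursors, Penk and Pnoc shared 0 and 2 wells in the series and the C57BL/6 set, Penk and Pdyn 0 and 4, and Pdyn and Pnoc 2 and 3. Wells with more UMIs hold more genes of any kind, and these counts were not tested.

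Kept wells were then clustered on variable genes that left out the 7 members and Gpr151, into 27 clusters in the series and 16 on the C57BL/6 plates, numbered by size from 0. The names are rebuilt from marker genes, and cluster levels are descriptions over wells, not replicates. In the series 4 clusters held most Oprm1 counts. Cluster 5 (232 wells of P4 to adult, unnamed, led by the serotonin receptor gene Htr5b and the relaxin receptor gene Rxfp2) had 420 CPM of Oprm1 in 87.9% of its wells and 779 CPM of Gpr151. Cluster 25 (20 wells, lateral habenula-like, led by Htr2c and Chrm2) had 377 CPM in 80.0% and 910 of Gpr151. Cluster 9 (172 adult wells, medial habenula-like, with Tac2 and the heat shock gene Hspa1b among its leading genes) had 360 CPM in 72.7% and 939 of Gpr151. Cluster 10 (165 wells, with medial and lateral markers, led by Gad1, Pde11a and Cck) had 319 CPM in 86.1% with a lower Gpr151 level of 144. These clusters took 33.9%, 4.32%, 26.0% and 22.5% of all Oprm1 counts of the series. Adult plate 2 gave 91.3% of the wells of cluster 9 and 65% of those of cluster 25.

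Gpr151 did not by itself mark the wells with Oprm1. Cluster 13 (94 medial habenula-like wells, with the nicotinic receptor gene Chrnb3 among its leading genes) had 285 CPM of Gpr151 in 84.0% of its wells and 10.1 CPM of Oprm1. Cluster 11 (116 unnamed wells) had 137 and 11.3, and cluster 0 (519 medial habenula-like wells with Chat, the acetylcholine synthesis gene) had 67.3 and 10.2. These clusters had Gpr151 with little Oprm1. At E11 and E12, where Gpr151 was nearly absent, cluster 4 (253 wells, with Onecut3 among its leading genes) had 34.0 CPM of Oprm1 in 34.8% of its wells, and cluster 3 (281 wells, led by Tfap2b) had 3.22 in 4.27%. So the early Oprm1 counts were also unequal between neuron clusters of the same plates.

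The C57BL/6 E18 plates showed a like split. Cluster 6 (72 wells, with Gpr151 level 431 CPM and Htr5b among its leading genes) had 539 CPM of Oprm1 in 88.9% of its wells. It was lateral habenula-like only by Sst, Cartpt and Htr4, none of them among its leading genes. Series cluster 5, which also had Htr5b among its leading genes, passed the medial markers Gng8, Nwd2, Chrna3 and Calb2 and 2 lateral ones. The side of the habenula, medial or lateral, is thus not settled for these wells. Cluster 0 (133 medial habenula-like wells with Tac1 and Pde11a) had 189 CPM in 78.2%, with Gpr151 at 22.1 CPM in 23.3%. Cluster 1 (118 medial habenula-like wells led by Chrnb3) had 5.53 CPM in 11.0%. The Oprm1 wells without Gpr151 at this stage thus included many of cluster 0.

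**Figure D5:**
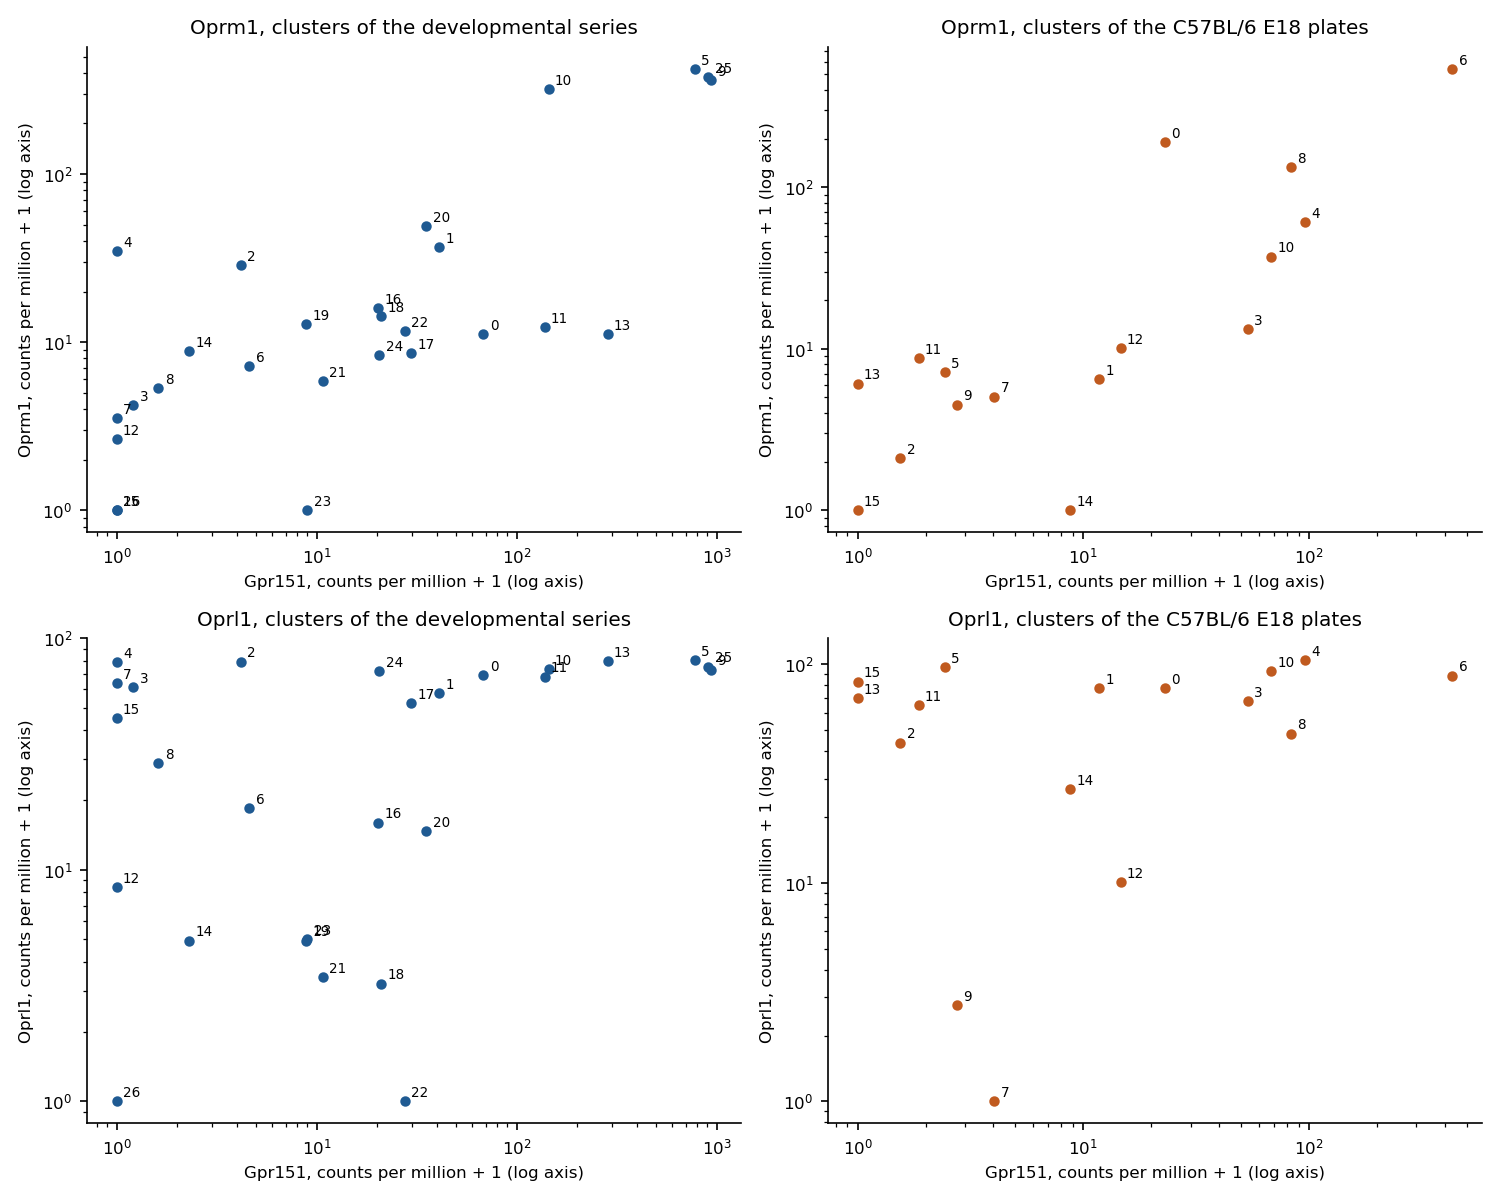
Level of Oprm1 (upper row) and Oprl1 (lower row) against that of Gpr151 in each cluster of the developmental series (left) and of the C57BL/6 E18 plates (right), as CPM + 1 on log axes; numbers name the clusters and each point sums the wells of 1 cluster. Series clusters 5, 25, 9 and 10 stand at the top for Oprm1, clusters 0, 11 and 13 have Gpr151 with little Oprm1, and Oprl1 is level over the neuron clusters.

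Oprl1 was spread over the neuron clusters and low elsewhere. In the series it had 79.4 CPM in cluster 5, 78.6 in cluster 13, 77.9 in cluster 4, 60.7 in cluster 3 and 56.7 in cluster 1. It had 7.42 CPM in the progenitor-like cluster 12 and 13.7 in the oligodendrocyte cluster 20, but 51.5 in cluster 17, oligodendrocyte lineage-like wells with the precursor genes Pdgfra and Gpr17 among their leading genes. In the C57BL/6 set the cluster led by Pdgfra and Gpr17 (27 wells, unnamed) had 68.7 CPM, and cluster 7 (72 wells, with Lrrc23, Ak7 and Ccdc146, genes of motile cilia, among its leading genes) had none, which allows up to 4.17% of wells. By the marker rule cluster 7 was progenitor-like, with 7 markers passed. That name is not used here, since its leading genes include cilia genes and none of these markers. A lack of leading markers was not itself the rule: series clusters 0 and 13 also had none and kept their names. The nociceptin receptor was thus also counted in wells with the genes of oligodendrocyte precursors, in both sets.

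The sparse members had uneven places too. Among the C57BL/6 clusters, cluster 5, 78 thalamus-type neuron-like wells led by Gbx2 and mostly from the plate of both sides, held 42.9% of all Pdyn counts (17.2 CPM, 23.1% of wells) and 59.3% of all Oprk1 counts (7.64 CPM, 12.8%). The same cluster had 9.55 CPM of Pnoc in 15.4% and 14.8 of Penk in 10.3% of its wells. Cluster 4 (94 unnamed wells led by Gad2, a GABA synthesis gene) held 34.5% of Pdyn counts and had 17.1 CPM of Pnoc in 13.8% of its wells. In the series the Penk counts were led by cluster 0 (25 of 519 wells, 37.1% of counts), and the highest Penk level, 44.1 CPM, was in vascular-like cluster 21, whose leading genes include Col1a1 and other collagens (5 of 41 wells). Oprk1 was led by cluster 4, the Onecut3 wells of E11 and E12, with 34.2% of its counts.

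Some of the 43 genes around the opioid receptors changed between stages as well. They were listed under 45 symbols, since the kinase genes Grk2 and Grk3 were also listed under their older symbols. Over any stage 28 of 43 passed, against 46.4% of all genes, and 21 to 32 with 1 plate left out. From E11 to P4, 11 rose and 5 fell, against 13.2% and 11.1% of all genes (median log2 fold change 0.37, and 0.02 over all genes). Mme, which encodes the enkephalin-degrading peptidase neprilysin, rose from 1.2 ± 0.609 to 47.0 ± 3.12 CPM (log2 fold change 5.32), and Pcsk1, a prohormone convertase, from 2.58 to 24.9 (3.32). Kcnj9, a potassium channel subunit opened by these receptors, rose from 1.2 to 10.7 (3.2), Grk3, a receptor kinase, from 14.9 to 97.1 (2.76) and Rgs4, which shortens G protein signals, from 7.52 to 45.9 (2.67). Adcy5, an adenylyl cyclase, fell from 50.4 to 7.53 (−2.68). The cells of the plates differed too: medial habenula markers summed to 677 and 694 CPM at E11 and to 6457 and 7330 at P4. Lateral habenula markers summed to 3011 and 3030 at E11 and to 640 and 548 at P4. Neuron markers summed to 15190 and 15336 at E11 and to 6930 and 6988 at P4, and the part of these differences was not tested. With 1 plate left out 4 to 7 genes rose and 2 to 4 fell, and with the 4 plates of the step alone 19 rose and 10 fell. Mme, Pcsk1 and Grk3 passed each time, while Kcnj9 and Rgs4 missed the threshold without either E11 plate (adjusted p of 0.0811 and 0.0543 for Kcnj9, 0.0566 and 0.0795 for Rgs4) and Adcy5 without P4 plate 2 (0.0601).

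From E18 to P4, 11 rose and 3 fell, against 9.2% and 10.4% of all genes (median 0.73, and −0.07 over all genes). Rgs4 rose from 1.77 to 45.9 CPM (log2 fold change 4.72), Mme from 3.92 to 47.0 (3.71), Pcsk1 from 3.06 to 24.9 (3.41) and Gprasp1, a receptor sorting protein, from 229 to 784 (1.97). Rgs20 fell from 75.7 to 13.0 (−2.31) and Gnai2, an inhibitory G protein subunit, from 558 to 134 (−1.81). The cells of the plates differed along with these genes: progenitor markers summed to 3674 and 195 CPM on the E18 plates and 318 and 292 at P4, and neuron markers to 3497 and 8306 against 6930 and 6988; their part was not tested. Without E18 plate 1, the plate high in progenitor markers, 6 rose and 1 fell (1670 of all genes passed, against 3421), and without E18 plate 2 19 rose and 3 fell (5695 of all genes). Without P4 plate 1 5 rose and 1 fell (880 of all genes), and without P4 plate 2 4 rose and 1 fell (574). With the 4 plates of the step alone 2 rose and 2 fell. Rgs4, Mme, Pcsk1 and Rgs20 passed with any 1 plate left out. Gnai2 passed only without E18 plate 2 and had −1.03 without E18 plate 1 (adjusted p = 0.0657), and Gprasp1 missed the threshold without P4 plate 2 (adjusted p = 0.0541). From P4 to P7 none of the 43 passed by edgeR, while 1 passed by DESeq2, 2 with no filter on low counts and 5 with the 4 plates alone. From P7 to adult 1 passed, Rgs19, which fell from 24.8 to 10.6 CPM (−1.23, adjusted p = 0.0492; 1.76% of all genes rose and 1.82% fell), a call lost without P7 plate 1 (0.268), P7 plate 2 (0.250) or adult plate 1 (0.205). None passed either with DESeq2's size factors, wells of at least 2000 UMIs, spliced counts, the replicate block or without wells of very high UMIs, while 4 passed by DESeq2, 5 with no filter, 3 with the 4 plates alone and 4 without adult plate 2. Between left and right 0 of 40 passed.

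In Gpr151-positive wells of P4 to adult, 7 of 42 pathway genes were higher and 5 lower than in negative wells of the same plates, against 2.24% and 7.46% of all genes (median 0.16, against 0.04 over all genes). Gnaz, a G protein subunit, had 91.5 against 45.0 CPM (log2 fold change 1.04), Mme 52.5 against 27.0 (1.03) and Rgs4 122 against 76.7 (1.03). Adcy5 had 10.6 against 27.5 (−1.72), Rgs20 8.36 against 37.1 (−1.49) and Adcy1 6.32 against 14.4 (−1.04). With 1 plate left out 3 to 4 were higher and 1 to 5 lower, the 1 without P7 plate 1. In wells thinned to 2000 UMIs 2 were higher and 2 lower of 34 tested, in Pou4f1-positive wells 4 were higher and 1 lower, and with spliced counts 5 and 3. Gnaz and Mme passed each time, Rgs4 missed the threshold without either P4 plate or either P7 plate (adjusted p of 0.0532 to 0.0660), Adcy5 (0.0585) and Rgs20 (0.0521) without P7 plate 1, and Adcy1 without either P7 plate or adult plate 2 (0.0666 to 0.112). On the C57BL/6 E18 plates 11 of 39 were higher and 6 lower, against 6.79% and 8.45% of all genes (median 0.09, against −0.01). Rgs4 had 50.7 against 7.70 CPM (2.41), Mme 35.6 against 8.10 (2.20) and Gpr139, an orphan receptor reported to oppose mu receptor signalling, 78.0 against 32.6 (1.32). Adcy5 had 7.19 against 30.4 (−2.0), Adcy1 10.4 against 36.8 (−1.85) and Kcnj3 18.4 against 36.8 (−0.94). These 6 genes passed with any 1 of the 5 plates left out. In thinned wells 2 were higher and 1 lower, of 17 that could be tested. Rgs4 and Mme were higher and Adcy5 and Adcy1 lower in both sets. Pou4f1 was higher in the Gpr151 wells at E18 (902 ± 171 against 523 ± 156 CPM, log2 fold change 0.88, adjusted p = 7.31e-05), while from P4 to adult its change of 0.74 did not pass (adjusted p = 0.160).

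The genes whose level over the 15 plates of the series was most like that of each tested member were named by Pearson's r of log2(CPM + 1), as a description over plates that share stage, depth and cell makeup. For Oprm1 they were Gabbr1 (0.980), Syp (0.977), Elfn2 (0.971), Ids (0.971) and Napb (0.969), of 12748 genes. Oprl1 was most like Celf5 (0.944), Svop (0.944), Scn3a (0.943), Stmn3 (0.932) and Cmas (0.921), and Pnoc most like Zfp521 (0.920), Dnmt3b (0.909), Cbx5 (0.905), Trim45 (0.903) and Ankrd49 (0.884). Penk, with few counts, had lower values, Ung (0.840), Stc1 (0.798), Fads3 (0.789) and Acp2 (0.781).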

How the data were processed

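The authors deposited expected counts, UMI numbers per gene and well corrected for UMI collisions, as total, spliced and unspliced tables; per the submitters' processing notes reads were processed with Trim Galore and STAR 2.5.3a on mm10. No source used here names the counting program, its annotation or its use of strand. Spike-in rows were left out. Deposited expected counts of kept wells were summed per plate, rounded to whole numbers and tested with edgeR 4.0.16 (R 4.3.3; filterByExpr, TMM, glmQLFit, glmQLFTest; Benjamini-Hochberg over all genes tested, adjusted p of 0.05), and DESeq2 1.42.0 was an alternative. Gpr151-positive and negative sums had the plate as block. E12, with 1 plate, and the plate of both sides (for the side test) were described only. Clusters came from scanpy 1.11.5 (2000 variable genes, 30 components, 15 neighbours, resolution 1). They were called X-like where 3 or more markers of a list were at least 2-fold higher and in at least 20% of their wells. The name was withheld where markers of another list outnumbered its own among the leading genes. It was also withheld from clusters far shallower than their plates with no own marker leading. An unnamed cluster can thus have passed 3 or more markers. No doublet caller was run, and wells above 3 times their plate's median UMIs were left out as an alternative. Limits for a count of 0 are 3 counts, and intervals are 95% exact (Clopper-Pearson). The fits were tested on simulated data. Named were the 7 members, Gpr151 and Pou4f1, in each contrast up to 6 pathway genes past the threshold with the largest fold change and at least 10 CPM in the higher group, and the 5 genes most like each tested member (mean of at least 5 CPM), of which 1 is not reported here. Other genes were named from the leading genes of clusters or for their overlap with a member. Members and lists were chosen with earlier results of these data known.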

Additional observations from a re-analysis of the deposited data

Results flagged for a closer look

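Among groups of 5 or 6 plates, 4 of the 25 member levels had 1 plate far from the others by Dixon's criterion, and all 4 concern rarely detected members. Chance flags about 1 in 20 groups of continuous values, a rate that does not hold where all other plates are at 0, as for the first pair below, since any count is then flagged. Oprd1 in Gpr151-positive wells of adult plate 2 had 0.245 CPM, with no count on the other P4 to adult plates. Pnoc in Gpr151-negative wells of P4 plate 1 had 1.24 CPM, with no count on the other 5 plates. Penk in Gpr151-negative wells of left plate 1 had 24.8 CPM, and 4.43 without its highest well. Pnoc in Gpr151-positive wells of right plate 1 had 2.19 CPM, above the other C57BL/6 plates.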

How the results depend on the processing

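The opioid genes past the threshold were counted again under each alternative. Over all stages 1 passed (Oprm1); DESeq2 gave 2, no filter on low counts 4, and leaving out 1 plate 1 to 4 (3 without E18 plate 1 and 4 without E18 plate 2). From E11 to P4 0 passed, against 2 with no filter, 1 with spliced counts only (Oprm1, 2.99, adjusted p = 0.0327) and 3 with the 4 plates alone; leaving out a plate gave 0. From E18 to P4 0 passed, against 2 with no filter, 1 with spliced counts (Oprm1, 3.99, adjusted p = 0.0383), 1 without wells of very high UMIs (Oprm1, 3.20, adjusted p = 0.0296), 1 with the replicate block (Oprm1, 2.87, adjusted p = 0.0466) and 0 to 3 leaving out a plate, the 3 without E18 plate 2 (Oprm1, Oprl1 and Pdyn). From P4 to P7 0 passed, and 1 with the 4 plates alone; from P7 to adult all 14 alternatives gave 0. Between left and right 0 passed, against 1 with no filter. The count also moved in fits that left out a plate. Penk had log2 fold changes of 5.61, 4.95 and 4.64 without left plate 2, right plate 1 and right plate 2, each leaving 1 plate on a side. Of its counts on left plate 1, 81.5% came from 1 well, and left plate 2 had a count of 0. For Gpr151-positive wells of P4 to adult all 15 alternatives gave 1. On the C57BL/6 plates 2 passed, against 4 with no filter, 1 each without wells of very high UMIs, in Pou4f1-positive wells and in thinned wells, and 1 to 4 leaving out a plate (1 without left plate 1 or the plate of both sides, 4 without left plate 2).

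Signs that turned, none of them past the threshold, were these log2 fold changes. Penk was −0.087 from E18 to P4 with spliced counts, and from P4 to P7 0.26 with spliced counts and −2.07 to 0.62 leaving out a plate (0.034 without P4 plate 2). Leaving out a plate gave −2.74 to 4.07 for Pnoc from E18 to P4 (4.07 without E18 plate 1), −0.029 to 0.17 for Oprl1 from P4 to P7, and −0.32 to 0.75 for Oprm1 from P7 to adult (−0.32 without adult plate 2), where spliced counts gave −0.45. Between left and right, leaving out a plate gave −0.38 to 1.28 for Pdyn, −0.47 to 0.21 for Oprl1 and −0.45 to 0.77 for Pnoc. Pdyn was −0.033 without wells of very high UMIs, Oprl1 0.0093 with spliced counts, and Pnoc −0.015 by DESeq2, −0.031 with no filter, −0.099 in wells of at least 2000 UMIs, −0.0090 with spliced counts and −0.0087 with the replicate block. The cause of these changes was not tested.

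Counts over all genes moved too. From E11 to P4 4244 genes passed, against 8777 with the 4 plates alone and 1535 to 1875 leaving out a plate; from E18 to P4 3421, against 528 and 574 to 5695. From P4 to P7 1 passed, against 21 by DESeq2, 136 with no filter, 541 with the 4 plates alone and 0 without wells of very high UMIs or leaving out a plate. From P7 to adult 625 passed, against 1359 by DESeq2, 1766 with no filter and 27 to 1074 leaving out a plate. Between left and right 0 passed, against 1 by DESeq2, 37 with no filter, 6 with the replicate block and 18 to 39 leaving out a plate. For Gpr151-positive wells 1465 passed from P4 to adult, against 2590 with no filter, 470 in Pou4f1-positive wells, 747 in thinned wells and 871 without P7 plate 1. On the C57BL/6 plates 2029 passed, against 204 in thinned wells and 1294 without left plate 1. Replicate numbers were not a pairing: same-numbered plates of 21 pairs of stages had deviations correlated at −0.363 to 0.250, 4 of them over 0.1. The left and right plates, with 1 such pair, had 0.233, and no label ties their numbers. Where a stage keeps 1 plate, that plate is assumed to vary like the others. Depth limits Oprd1, Oprk1, Penk, Pdyn and Pnoc most, with 0 to 24 wells per plate. Counts of pathway genes under each alternative were added after seeing the data.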
